A study of Mus musculus with 7 samples.

Results

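Cycling cells were picked from 3 libraries of virus-specific spleen T cells taken 7 days after infection. A cell counted as cycling when it held at least 1 unique molecular identifier (UMI, the tag that marks a single captured mRNA molecule) in at least 2 of 3 genes of the dividing cell. These were Mki67 (ENSMUSG00000031004), which encodes the proliferation antigen Ki-67, Top2a (ENSMUSG00000020914), a DNA topoisomerase, and Birc5 (ENSMUSG00000017716), the survivin subunit of the chromosomal passenger complex. Of the 5751 cells kept in the 3 libraries, 1162 were cycling, and the series as a whole held 16427 kept cells in 7 libraries. A barcode was kept as a cell with at least 500 detected genes and at most 10% of its UMIs from mitochondrial genes. The choice was made on the measured mRNA, so the 3 genes are described here and not tested.

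All mice had a C57BL/6 background and carried lymphocytic choriomeningitis virus (LCMV, strain Armstrong), and the cells were CD44high and bound a tetramer of I-Ab with the viral peptide GP66. The Thpok-deleted library came from Ox40-Cre+ Thpokfl/fl RosaYFP+ mice, in which Cre under the control of Ox40, a gene that T cells switch on after activation, deletes the gene Zbtb7b, which encodes the transcription factor Thpok. The Thpok-sufficient library came from Ox40-Cre+ Thpokwt/wt RosaYFP+ mice, which carry the same Cre and reporter. The wild type library carried neither and was sorted with a CD4+ gate, which the labels do not name for the other GP66+ libraries. Each group was 1 library, and how many animals, of what age, went into it is not stated in the sources at hand. The p-values below therefore measure no spread beyond that among libraries, which may be technical. The tests also borrow much of that spread from other genes. The Thpok-sufficient and wild type libraries are jointly called Thpok-intact.

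Helper T cells that recognise GP66 multiply in the first week of this infection, and at day 7 they divide into T helper 1 (Th1) cells, which make inflammatory mediators, and Tfh (follicular helper) cells, which assist antibody responses. Thpok keeps helper cells in the CD4 lineage and holds back genes of killer T cells. A dividing cell first copies its DNA, with the replication genes switched on largely by E2F factors, and then builds the mitotic apparatus, whose genes are switched on later by the MuvB complex with B-Myb and FoxM1. In the promoters of these later genes the complex is known to read a short element called the cell cycle genes homology region (CHR), often near CCAAT boxes.

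The promoters of the 3 genes that set membership, and of a later gene (Ccnb2, the mitotic cyclin B2) and a replication gene (Mcm5, a subunit of the helicase that opens DNA) chosen after their values were seen, are given from 250 bases before to 50 bases after the start of the gene, in RefSeq annotation on GRCm38.p6. They lie at chr7:135716330-135716629 (Mki67, minus strand), chr11:99024140-99024439 (Top2a, minus strand), chr11:117848987-117849286 (Birc5, plus strand), chr9:70421505-70421804 (Ccnb2, minus strand) and chr8:75109259-75109558 (Mcm5, plus strand). Capitals mark 3 motifs searched on both strands. The CHR core was spelled TTTGAA, the second motif was the CCAAT box, and the E2F site was spelled TTTGGCGC, TTTCCCGC, TTTGCCGC or TTTCGCGC.
Mki67: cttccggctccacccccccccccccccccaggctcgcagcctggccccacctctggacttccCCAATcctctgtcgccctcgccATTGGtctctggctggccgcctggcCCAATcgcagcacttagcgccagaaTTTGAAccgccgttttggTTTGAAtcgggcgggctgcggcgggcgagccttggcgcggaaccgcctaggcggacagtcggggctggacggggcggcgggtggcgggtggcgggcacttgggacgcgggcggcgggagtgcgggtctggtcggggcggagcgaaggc
Top2a: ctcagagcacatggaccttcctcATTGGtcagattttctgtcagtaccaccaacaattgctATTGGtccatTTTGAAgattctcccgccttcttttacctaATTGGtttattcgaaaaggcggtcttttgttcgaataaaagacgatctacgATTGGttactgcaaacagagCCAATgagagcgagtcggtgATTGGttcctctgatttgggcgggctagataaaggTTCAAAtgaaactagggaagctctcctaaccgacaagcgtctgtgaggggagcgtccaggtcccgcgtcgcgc
Birc5: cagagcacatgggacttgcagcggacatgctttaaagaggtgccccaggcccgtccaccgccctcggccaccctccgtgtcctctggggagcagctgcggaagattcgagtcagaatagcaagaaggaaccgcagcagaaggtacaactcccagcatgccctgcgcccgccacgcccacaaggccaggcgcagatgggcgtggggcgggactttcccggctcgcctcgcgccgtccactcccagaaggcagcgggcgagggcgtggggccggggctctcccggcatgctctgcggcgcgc
Ccnb2: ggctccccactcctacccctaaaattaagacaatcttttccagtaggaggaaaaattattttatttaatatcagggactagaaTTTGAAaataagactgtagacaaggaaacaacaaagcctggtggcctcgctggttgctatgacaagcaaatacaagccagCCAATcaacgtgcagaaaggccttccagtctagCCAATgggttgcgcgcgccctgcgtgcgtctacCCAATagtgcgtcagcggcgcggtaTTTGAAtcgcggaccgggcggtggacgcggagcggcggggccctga
Mcm5: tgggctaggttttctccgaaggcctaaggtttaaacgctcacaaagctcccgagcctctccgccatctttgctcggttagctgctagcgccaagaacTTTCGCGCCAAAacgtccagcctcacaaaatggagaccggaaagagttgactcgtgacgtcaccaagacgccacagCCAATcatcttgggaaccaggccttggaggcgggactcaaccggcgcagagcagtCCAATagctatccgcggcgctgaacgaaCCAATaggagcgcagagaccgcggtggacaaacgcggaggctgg

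The Mki67, Top2a and Ccnb2 windows each held 2 CHR cores, with 3, 6 and 3 CCAAT boxes, and no E2F site in these letters. The Mcm5 window held 3 CCAAT boxes and 2 overlapping E2F sites, and the Birc5 window held none of the 3 motifs. Of all 32851 promoters of that length, 17.9% held a CHR core, 37.4% a CCAAT box and 2.26% an E2F site. Of the 55 promoters matched to 52 of the 64 genes on the mitosis list, 74.5% held a CHR core, 76.4% a CCAAT box and 9.09% an E2F site. Of the 50 promoters matched to 42 of the 50 genes on the DNA replication list, 8 held a CHR core, 30 a CCAAT box and 16 (32.0%) an E2F site. A match describes the letters and does not show that a factor binds there.

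Cycling cells made up 432 of 1333 kept cells (32.4%, 95% exact binomial interval 29.9 to 35.0) in the Thpok-deleted library, against 301 of 2157 (13.95%, 12.5 to 15.5) in the Thpok-sufficient and 429 of 2261 (19.0%, 17.4 to 20.7) in the wild type library. The share was highest in the Thpok-deleted library, and the 3 intervals, which cover counting error only, do not overlap. Since a deeper cell has more chances to show a gene, each cell was also thinned at random to 2000 UMIs, which left out 3, 1 and 1 cycling and 24, 31 and 54 other cells that were shallower. The shares were then 17.0%, 7.48% and 10.4%, in the same order of libraries. With 1 Thpok-deleted library at day 7 and 2 Thpok-intact ones, a difference in share between genotypes could not be tested. The same rule was applied to the 2 libraries of total CD44high cells of day 7. With all UMIs of a cell, 17.0% and 23.5% of CD8-like cells and 8.58% and 10.7% of CD4-like cells met it. After thinning to 2000 UMIs, 10.4% and 11.6% of CD8-like cells and 5.599% and 5.27% of CD4-like cells did.

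**Figure D1:**
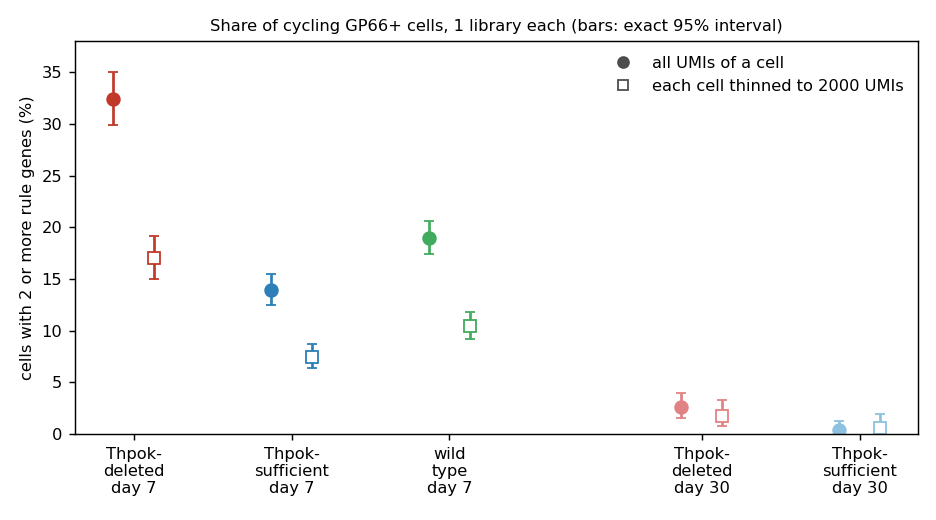
Percent of kept cells that met the rule (y axis) in each GP66+ library, with all UMIs of a cell (filled circles) and after thinning to 2000 UMIs (open squares), with exact 95% intervals. The Thpok-deleted library of day 7 stands highest at 32.4% and 17.0%.

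The cycling cells held more UMIs than the other cells of their libraries. The rule itself favours cells with more UMIs, and its part in this difference was not tested. Their median UMI total was 8492.5 in the Thpok-deleted, 7637 in the Thpok-sufficient and 9484 in the wild type library, against 5133, 5023.5 and 5194 in the other cells, a ratio of 1.65, 1.52 and 1.83. The sums tested below held 3916287, 2467436 and 4301839 UMIs from cycling cells and 4945374, 10020991 and 10057089 from other cells. Each pair of the 3 libraries shared 1 to 3 cell barcodes.

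Within each library the membership genes stood as follows, in CPM (UMI sums scaled to a common library size with the TMM factors of edgeR). Trios of values are given for the Thpok-deleted, the Thpok-sufficient and the wild type library, in that order, here and below. Mki67 stood at 211, 214 and 327 CPM in cycling and at 6.77, 5.59 and 7.47 CPM in other cells. Top2a stood at 532, 608 and 589 CPM in cycling and 46.5, 75.2 and 47.7 CPM in other cells, and Birc5 at 484, 483 and 532 CPM and 60.7, 26.9 and 23.6 CPM. All 3 genes had to be higher by the choice of cells. In barcodes with under 100 UMIs, which mostly hold free RNA, Mki67 was at 75.6, 47.1 and 42.2 CPM, Top2a at 232, 156 and 111 CPM and Birc5 at 364, 132 and 238 CPM, and the part of free RNA in single UMIs of the other cells was not tested.

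The label was checked on 50 DNA replication genes and 64 mitosis genes that had no part in the rule. At 2000 UMIs per cell, the median cycling cell held 41, 41 and 44 UMIs from both lists together, against 8, 5 and 6 in the other cells. The classes were not cleanly apart. Of the thinned cycling cells, 136 of 429 (31.7%), 65 of 300 (21.7%) and 67 of 428 (15.7%) held no more of these UMIs than the 95th percentile of the other cells of their library, which was 33, 21 and 16 UMIs. The overlap was thus widest in the Thpok-deleted library, whose other cells also reached highest.

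Cells just inside and just outside the rule form a graded series. Exactly 2 of the 3 genes were seen in 165, 149 and 168 cells and exactly 1 in 318, 609 and 578 cells. Ccnb2 stood at 178, 202 and 222 CPM, scaled to library totals, in cells with exactly 2 genes, and at 139, 73.5 and 57.6 CPM in cells with exactly 1. Mcm5 stood at 194, 133 and 148 CPM inside and at 120, 36.5 and 43.0 CPM outside. Cells with none of the 3 genes held less again, 31.2, 13.4 and 12.2 CPM of Ccnb2 and 53.0, 21.9 and 17.6 CPM of Mcm5, so that the cells with exactly 1 gene lay between. Cells just outside the rule in the Thpok-deleted library held more of both genes than those of either Thpok-intact library.

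The balance between replication and mitosis UMIs varied among members. Most held more mitosis than replication UMIs: the medians at 2000 UMIs were 27, 24.5 and 30 for the mitosis list and 14, 11 and 9 for the shorter replication list. Replication UMIs outnumbered mitosis UMIs in 84 of 429 (19.6%, 95% exact interval 15.9 to 23.7), 60 of 300 (interval 15.6 to 24.98%) and 59 of 428 (13.8%, 10.7 to 17.4) cycling cells. The intervals of the 3 libraries overlap. In the other cells, which held few UMIs of either list, the same share was 27.7% (24.8 to 30.8), 18.2% (16.5 to 20.1) and 19.7% (17.9 to 21.7). The share was thus lower in cycling than in other cells of the Thpok-deleted and wild type libraries, with intervals that do not overlap. In the Thpok-sufficient library the intervals of the classes overlap. All these intervals cover counting error only. The rule rests on genes that peak late in the cycle, so cells early in replication can fall outside it.

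**Figure D2:**
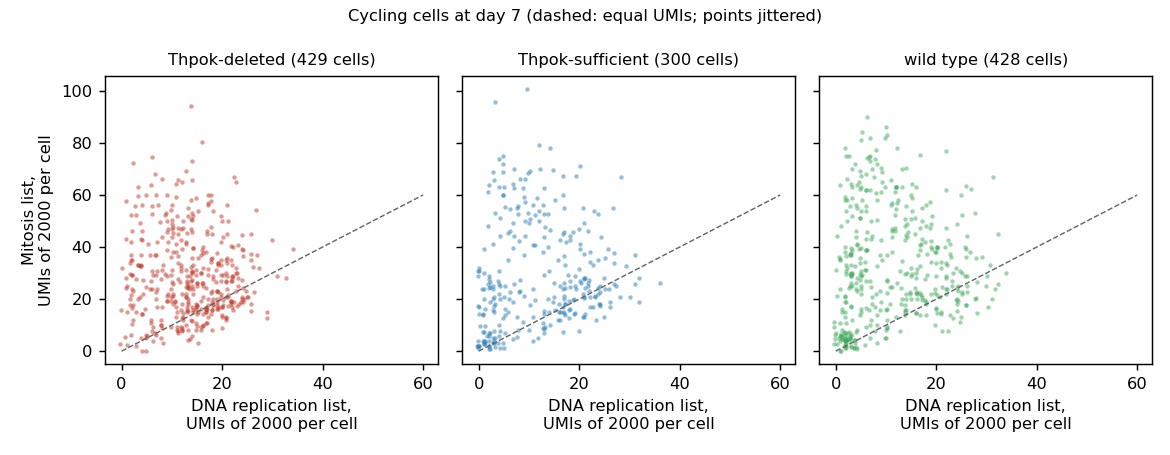
UMIs of the DNA replication list (x axis) and the mitosis list (y axis) per cycling cell, each cell thinned to 2000 UMIs. Points under the dashed line, 84 of 429, 60 of 300 and 59 of 428 cells from left to right, held more replication than mitosis UMIs.

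The cell cycle genes are described without a test, since they go with the genes of the rule. All 50 replication genes, 63 of 64 mitosis genes and 25 of 27 histone genes measured were higher in cycling cells in all 3 libraries, as were 29.1% of all 9905 genes. The median log2 fold change (cycling over other cells of the same library) was 1.99 for the replication, 3.48 for the mitosis and 2.18 for the histone list, against -0.03 for all genes.

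Among replication genes, Rrm2, the subunit of ribonucleotide reductase that limits the supply of DNA precursors, stood at 475, 521 and 385 CPM in cycling and 60.3, 23.3 and 14.1 CPM in other cells (log2 fold change 4.04). Pcna, the sliding clamp of the DNA polymerases, stood at 439.7, 384 and 197 CPM and 166, 82.6 and 42.4 CPM. The lowest cycling value of each lay above the highest value of the other cells. Tyms, which makes thymidylate, had a log2 fold change of 2.72, Dut, which clears dUTP, 1.72, Slbp, which binds histone mRNA, 1.66, and Asf1b, a histone chaperone, 3.64. The helicase subunit Mcm6 and the single-strand binding protein Rpa2 differed less, at 1.12 and 1.07. The other cells of the Thpok-deleted library held more of each of these than those of the Thpok-intact libraries, with Rpa2 at 179, 75.2 and 64.3 CPM.

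Among mitosis genes, Ube2c, the ubiquitin-conjugating enzyme of the anaphase-promoting complex, stood at 266, 356 and 452 CPM in cycling and 44.5, 23.0 and 21.4 CPM in other cells. Stmn1, which destabilises microtubules, stood at 1075, 994 and 1026 CPM and 224, 108 and 79.2 CPM, and Hmgb2, a chromatin protein, was the most abundant of the list at 4662, 4558 and 4715 CPM and 1663, 1057 and 845 CPM. None of the 3 genes overlapped between the classes. The log2 fold changes were 3.67, 3.05 and 2.03, and those of the tubulin Tuba1b, the kinase partner Cks2 and the centromeric histone Cenpa were 2.81, 1.93 and 1.78. Tubulins and histones are families of close copies, so reads may be shared among members.

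The variant histones H2afz and H2afx were higher by log2 fold changes of 1.73 and 3.09. Hist1h2ap, a replication-dependent core histone, stood at 201, 236 and 137 CPM in cycling and 8.61, 4.22 and 0.766 CPM in other cells. Messages of that class mostly lack the poly(A) tail that this assay captures, so their level here is a part of the whole.

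Of the 34 measured cell cycle control genes, 24 were higher in cycling cells in all 3 libraries and 5 lower, as were 29.1% and 31.7% of all genes. Cdk4, the kinase that acts with D cyclins at the entry into the cycle, stood at 201, 182 and 182 CPM in cycling and 112, 106 and 101 CPM in other cells. Cdkn2d, an inhibitor of that kinase, was higher as well, at 123, 170.5 and 172 CPM and 78.9, 119 and 113 CPM. The anti-proliferative gene Btg1 was lower, at 365, 547 and 196 CPM in cycling and 704, 1171 and 429 CPM in other cells, with no overlap within any library although the wild type other cells (429 CPM) held less than the Thpok-sufficient cycling cells.

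Outside these lists and the rule, the comparison of cycling with other cells of the same library asked what else the dividing cells expressed. edgeR's quasi-likelihood test on the UMI sums, with the library as a block and Benjamini-Hochberg adjustment, called 1787 of 9905 genes (18.0%) higher in cycling cells and 1534 (15.5%) lower at an adjusted p under 0.05. The fit had 2 residual degrees of freedom, and 7.94 prior ones drawn from the trend over genes. With 33.5% of all genes called, a list is read beside these shares. Sums of cells cannot tell fewer cells of a type from less RNA per cell. They are also relative to the total. Cycling cells held more UMIs each, which the rule itself favours. Of all genes, 82.3% had more UMIs per cell in cycling than in other cells in all 3 libraries, against 1.63% with fewer.

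**Figure D3:**
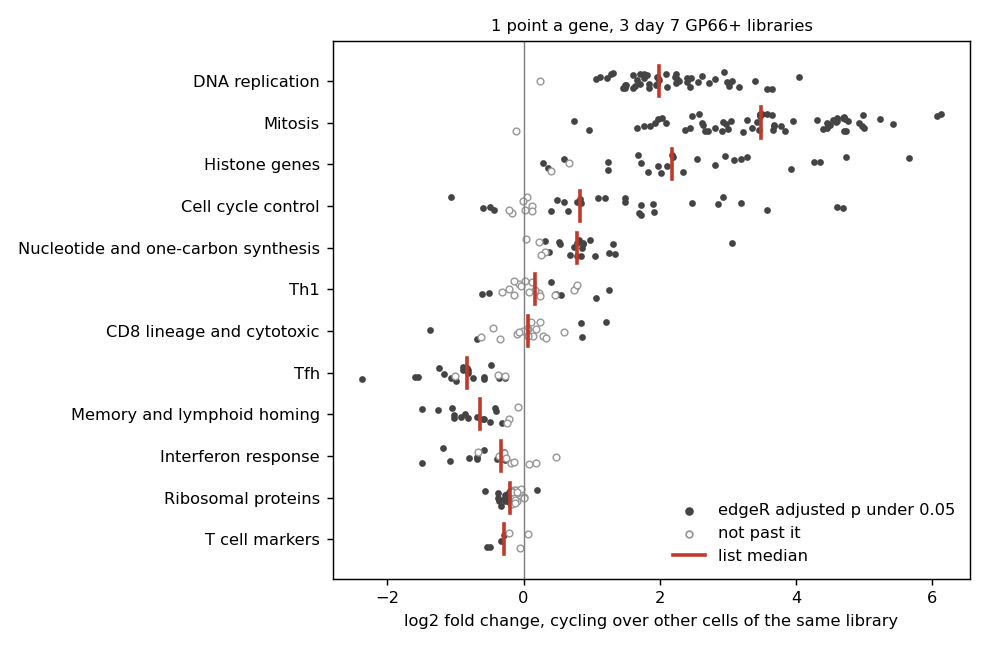
Log2 fold change of CPM in cycling over other cells (x axis), 1 point per measured gene, by gene list, with the list median as a red bar. The cell cycle lists lie to the right (medians 1.99, 3.48, 2.18 and 0.83), and the Tfh list (median -0.83) and the memory and lymphoid homing list (median -0.64) to the left.

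Outside the lists, the genes with the largest increases were the following. Esco2, which fastens cohesin during replication, stood at 71.0, 73.3 and 72.4 CPM in cycling and 1.23, 0.738 and 0.383 CPM in other cells (log2 fold change 6.67). Mxd3, a Max-binding partner of the Myc network, stood at 66.7, 58.6 and 48.9 CPM and 0.820, 0.527 and 1.34 CPM. Neither overlapped between the classes. Others were Sgol2a, a guardian of cohesin (log2 fold change 6.22), the spindle genes Aspm (5.21) and Ska1 (5.10), the kinetochore gene Casc5 (4.79), the centrosome kinase Nek2 (4.79), the DNA glycosylase Neil3 (5.12), Depdc1a (4.74), Lrr1 (4.71) and the histone Hist1h2al (4.84). These genes go with the cycle as the membership genes do and are described without a test.

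In the other direction, Tcp11l2 stood at 11.7, 14.3 and 12.3 CPM in cycling and 60.9, 62.3 and 85.0 CPM in other cells, the largest decrease among the named genes (log2 fold change -2.47 ± 0.14 standard error, edgeR adjusted p = 8.4e-07). It also graded with the number of membership genes seen, at 7.29, 1.51 and 7.18 CPM, scaled to library totals, with all 3 and at 75.7, 61.8 and 95.3 CPM with none. Mxd4, another Max-binding partner, stood at 40.3, 46.3 and 23.1 CPM in cycling and 99.4, 126 and 64.9 CPM in other cells (log2 fold change -1.41), so that Mxd3 and Mxd4 went opposite ways in every library. Also lower were Trp53inp1, a target of p53 (-1.38), Slfn1, of the Schlafen family (-1.28), Ypel3 (-1.16), and Lncpint, a noncoding RNA induced by p53 (-1.17). Pydc4 (-1.52), Gm20069 (-1.29), Pbxip1 (-1.23), Tnfsf8 (-1.16), the mRNA decay factor Zfp36 (-1.10) and Atg2a (-1.09) completed the 12 genes, all with an adjusted p of at most 8.5e-04.

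Enzymes that build nucleotides and one-carbon units rose as a list. Of 23 genes tested, 19 were called higher in cycling cells and none lower, with a median log2 fold change of 0.79 against -0.03 for all genes and 18.0% of all genes called higher. Impdh2, which commits purines to guanine nucleotides, stood at 150.2, 159 and 200.5 CPM in cycling and 87.1, 77.5 and 81.5 CPM in other cells (log2 fold change 1.05 ± 0.10, edgeR adjusted p = 4.0e-05). Mthfd2, a folate enzyme of the mitochondrion, stood at 95.4, 118 and 120.4 CPM and 53.7, 67.6 and 63.7 CPM (0.85, adjusted p = 3.7e-05). For both genes every cycling value exceeded every other value. Paics, of purine synthesis, had a log2 fold change of 0.68 (adjusted p = 3.2e-04) and Nme1, a nucleoside diphosphate kinase, 0.38 (adjusted p = 0.0029). Against other cells matched to the cycling cells in UMI total as far as the library allowed, 12 of the 23 genes were called higher. With that match 1282 of all 9463 genes were called higher, and Nme1 was not (log2 fold change 0.06, edgeR adjusted p = 0.62).

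Energy metabolism depended on that match. Of 17 glycolysis genes, 8 were called higher and 1 lower, and of 34 oxidative phosphorylation genes 14 higher and 1 lower. Over all genes these calls made up 18.0% and 15.5%. With other cells matched in UMI total, 0 glycolysis genes were called higher and 2 lower, and 4 and 1 genes of oxidative phosphorylation. With that match 1282 and 1024 of all 9463 genes were called. Without the wild type library, 2 genes of each list were called higher, beside 1178 of all 9588 genes. Ldha, lactate dehydrogenase A, had a log2 fold change of 0.30 (edgeR adjusted p = 0.0058) and of 0.10 (adjusted p = 0.30) with the match. Uqcrh, a hinge protein of complex III, was the oxidative phosphorylation gene called lower (-0.43, adjusted p = 0.00096). The match was incomplete in the Thpok-deleted and wild type libraries, where the matched other cells had a median of 6485.5 and 7824 UMIs against 8492.5 and 9484 in cycling cells.

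Ribosomal protein genes took a smaller share of the UMIs of cycling cells. Of 34 tested, 20 were called lower and 1 higher (15.5% and 18.0% of all genes), with a median log2 fold change of -0.20. Rplp0, a stalk protein of the large subunit, stood at 6472, 7116 and 6668 CPM in cycling and 6936, 8869.7 and 7456 CPM in other cells. The whole list made up 12.1%, 12.7% and 13.3% of UMIs in cycling and 12.8%, 15.0% and 14.8% in other cells, and 33 of the 34 genes had more UMIs per cell in cycling cells in all 3 libraries. Without the wild type library 2 genes were called lower, beside 828 of all 9588 genes. Without the Thpok-sufficient library 5 were, beside 836 of all 9736.

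Most genes of the Tfh list were lower in cycling cells. Of 22 genes tested, 19 were called lower and none higher, with a median log2 fold change of -0.83, beside 15.5% of all genes called lower. Izumo1r, the folate receptor 4 of follicular helper cells, named here after its values were seen, stood at 4.06, 69.2 and 90.8 CPM in cycling and 10.3, 244 and 249 CPM in other cells (log2 fold change -1.60 ± 0.11, edgeR adjusted p = 4.2e-06). Cxcr5, the chemokine receptor that leads cells into follicles and chosen in the same way, stood at 3.05, 40.97 and 44.8 CPM and 7.79, 71.2 and 83.1 CPM (-0.89 ± 0.11, adjusted p = 2.3e-04). Both were lower in cycling cells of each library, and both were low in either class of the Thpok-deleted library.

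Of the most abundant genes of that list, Tnfsf8, the ligand of CD30, stood at 4.57, 269 and 302 CPM in cycling and 26.0, 617 and 526 CPM in other cells (log2 fold change -1.16 ± 0.18, edgeR adjusted p = 0.00071). The costimulator Icos stood at 277, 592 and 542 CPM and 368, 845 and 761 CPM (-0.47, adjusted p = 5.1e-04). Each was lower in cycling cells within every library. The homotypic receptor Slamf6 (-0.89, adjusted p = 5.2e-05) and its adaptor Sh2d1a, known as SAP (-0.34, adjusted p = 0.0076), were called lower as well. Bcl6, the factor that sets the Tfh programme, was not past the threshold and was sparse, with 1, 10 and 34 UMIs in cycling and 4, 76 and 77 in other cells (-0.38, adjusted p = 0.36). With a gene-wise spread that allows outliers (the robust option of edgeR), Tnfsf8 was not called (adjusted p = 0.11), while the list count stayed at 19. Without the Thpok-sufficient library, 11 of the 22 genes were called lower, beside 836 of all 9736 genes. Without the block for library, 0 were, beside 149 of all 9590. Memory genes, taken next, stood at 4 calls without the block.

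Per cell the picture was mixed. Izumo1r had 3.70, 56.1 and 94.4 UMIs per 100 cycling cells and 5.55, 125 and 142 per 100 other cells, fewer in cycling cells of all 3 libraries, and 4 of the 22 genes did so, against 1.63% of all genes. Another 5 of the 22 had more UMIs per cycling cell in all 3 libraries, against 82.3% of all genes. Cxcr5 had 2.78, 33.2 and 46.6 UMIs per 100 cycling cells and 4.22, 36.4 and 47.4 per 100 other cells, lower per cell in each library by a smaller margin than in CPM.

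Genes of memory and lymphoid homing went the same way. Of 18 tested, 15 were called lower and none higher, with a median log2 fold change of -0.64, beside 15.5% of all genes called lower. Tcf7, the factor TCF-1 of long-lived and Tfh cells, stood at 26.4, 259 and 339 CPM in cycling and 83.2, 518 and 536 CPM in other cells (-1.02 ± 0.14, edgeR adjusted p = 4.1e-04). Ltb, lymphotoxin beta, stood at 289, 418 and 366 CPM and 599.7, 792 and 783 CPM (-1.02 ± 0.07, adjusted p = 4.5e-06), and no cycling value of Ltb reached any value of the other cells. The survival gene Bcl2 (-0.86, adjusted p = 2.2e-05) and the costimulatory receptor Cd27 (-0.58, adjusted p = 2.8e-04) were called lower too. With other cells matched in UMI total, 8 of the 18 genes were called lower, beside 1024 of all 9463 genes.

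**Figure D4:**
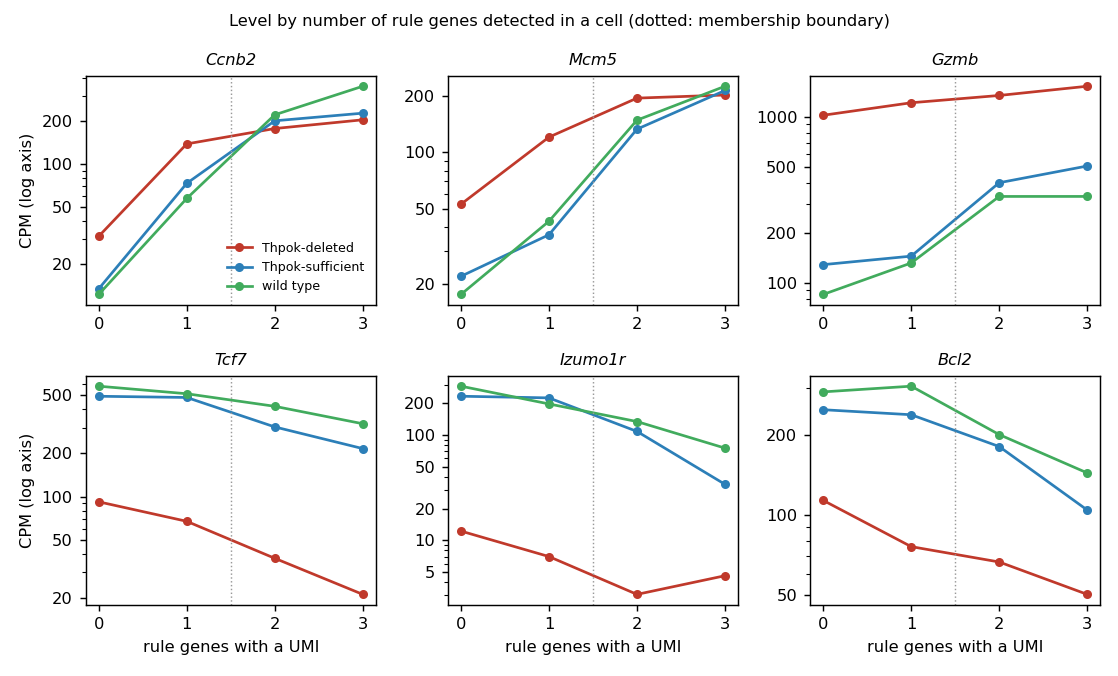
CPM scaled to library totals (y axis, log scale) of 6 genes in cells with 0, 1, 2 or 3 of the membership genes detected (x axis), 1 line per day 7 library. In the Thpok-intact libraries Ccnb2, Mcm5 and Gzmb stand higher, and Tcf7, Izumo1r and Bcl2 lower, with all 3 genes than with none. The dotted line is the limit of the rule.

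The plot of these genes by number of membership genes shows differences on both sides of the limit of the rule, though not at every step. In the wild type library Bcl2 stood at 290 CPM with none and 305 CPM with exactly 1. Gzmb there stood level, at 331.4 CPM with exactly 2 and 331.5 CPM with all 3. Tcf7 stood at 21.1, 215 and 319 CPM in cells with all 3 genes, 37.5, 303 and 421 CPM with exactly 2, 67.5, 484 and 514 CPM with exactly 1 and 92.0, 494 and 580 CPM with none. In the Thpok-intact libraries the cells with exactly 1 gene lay closer to those with none.

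Th1 genes were divided between the classes, and the count turned on the Thpok-deleted library. Of 23 Th1 genes, 6 were called higher in cycling cells and 2 lower, beside 18.0% and 15.5% of all genes, and without the Thpok-deleted library 15 and 2, where 2204 and 1975 of all 10197 genes were called. With DESeq2 or the robust option 3 were called higher, where 1133 and 1834 of all genes were. Without either Thpok-intact library 2 were called higher. Of all genes, 1269 were without the Thpok-sufficient and 1178 without the wild type library. Gzmb, the protease granzyme B, stood at 1459, 462 and 319.8 CPM in cycling and 1117, 142 and 97.6 CPM in other cells (log2 fold change 1.25 ± 0.22, edgeR adjusted p = 0.0016). It was higher in cycling cells in each library, by a ratio of 1.31, 3.25 and 3.28. Prdm1, the factor Blimp-1 and named after its values were seen, stood at 37.8, 18.0 and 22.9 CPM and 25.4, 7.80 and 7.66 CPM (1.07 ± 0.19, adjusted p = 0.0020). The chemokine Ccl5 (-0.13, adjusted p = 0.71), the granule protein Nkg7 (0.24, adjusted p = 0.15) and the Th1 factor Tbx21 (0.23, adjusted p = 0.15) did not pass over the 3 libraries. With the robust option Gzmb did not pass either (adjusted p = 0.18).

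Of 21 cytotoxic and CD8 lineage genes tested, 3 were called higher and 2 lower, no larger a share than the 18.0% and 15.5% of all genes. Without the Thpok-deleted library 11 and 1 were called, beside 2204 and 1975 of 10197 genes. Gzma, granzyme A, stood at 645, 43.4 and 48.4 CPM in cycling and 559.6, 9.60 and 10.3 CPM in other cells (log2 fold change 1.21 ± 0.33, edgeR adjusted p = 0.019). The granzyme inhibitor Serpinb9 (0.84, adjusted p = 0.0015) and the chemokine receptor Cx3cr1 (0.86, adjusted p = 0.028) were the other genes called higher. The natural killer receptor Klrd1 (-0.69, adjusted p = 0.0054) and the adhesion receptor Crtam (-1.37, adjusted p = 8.9e-04) were called lower. Neither Gzma (adjusted p = 0.33) nor Serpinb9 (adjusted p = 0.066) was called with the robust option, and Gzma was not called by DESeq2 (adjusted p = 0.069). Cx3cr1 was not called without the Thpok-sufficient library (adjusted p = 0.0522). Klrd1 was not called with other cells matched in UMI total (adjusted p = 0.0985) or without the Thpok-deleted library (adjusted p = 0.0713).

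The same relation can be read by cell. At 2000 UMIs, 181 of 979 cells (18.5%, 95% exact interval 16.1 to 21.1) with a Gzmb UMI were cycling in the Thpok-deleted library, 55 of 231 (23.8%, 18.5 to 29.8) in the Thpok-sufficient and 64 of 229 (27.9%, 22.2 to 34.2) in the wild type library. Of cells without a Gzmb UMI, 41 of 327 (12.5%, 9.15 to 16.6), 104 of 1894 (5.49%, 4.51 to 6.61) and 166 of 1977 (8.40%, 7.21 to 9.71) were cycling. In the Thpok-intact libraries the intervals of the shares lay far apart, and in the Thpok-deleted library they overlapped. With an Izumo1r UMI, 4 of 485 Thpok-sufficient cells (0.825%, 0.225 to 2.10) were cycling, against 9.45% of those without. The shares were 30 of 563 (5.33%, 3.62 to 7.52) against 12.2% in the wild type library, and 1 of 13 (7.69%, 0.195 to 36.03) against 17.1% in the Thpok-deleted one, where the interval holds both. Not every gene of the Tfh and memory lists showed such a gap: with a UMI of the homing receptor gene Ccr7, 7.75% of Thpok-sufficient cells were cycling, against 7.44% of those without. For Cxcr5 the intervals overlapped in each library, at 4.45% against 7.88% (Thpok-sufficient) and 6.51% against 11.1% (wild type). With a Cxcr6 UMI, 16.1% of cells of either Thpok-intact library were cycling, against 6.59% and 9.80% without. In the Thpok-deleted library the order was reversed, at 13.9% (10.6 to 17.8) against 18.3% (15.8 to 20.9), and these intervals overlap. These intervals cover counting error among cells only. Free RNA can give a cell a single UMI of any of these genes, and its part was not tested.

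Smaller groups followed. Of 20 interferon response genes, 10 were called lower and none higher (median log2 fold change -0.33), with Ifi27l2a at 797, 1615 and 1721 CPM in cycling and 1371, 2523 and 2634 CPM in other cells (-0.68, edgeR adjusted p = 4.1e-05). Of 7 T cell marker genes tested, 4 were called lower, among them the CD3 chains Cd3d (-0.54) and Cd3g (-0.50). All 7 had more UMIs per cell in cycling cells of all 3 libraries. The costimulatory receptor Cd28 (-0.47) was called lower, but not against cells matched in UMI total (-0.14, adjusted p = 0.24). Of 13 stress genes tested, the chaperone Hsp90aa1 rose (0.89, adjusted p = 8.1e-06), and Zfp36, Jun (-0.81, adjusted p 0.18 with the robust option), Fos and Hspa1b fell. The lectin Lgals1 (0.62, adjusted p 0.10 with the robust option) and the LIM protein Crip1 (0.39) were among 7 of 20 migration genes called higher, with 4 lower. Each of these list counts stands beside 18.0% of all genes called higher and 15.5% called lower.

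Markers of other cell types were few. Of 12 myeloid genes in the files, summed levels were 191, 154 and 231 CPM in cycling and 226, 164 and 147 CPM in other cells. In the wild type library Lyz2 (127 UMIs in cycling, 7 in other cells), C1qb (48 and 4) and Tyrobp (54 and 5) were higher in the cycling sum. Only 1 cell of that sum had UMIs of several myeloid or B cell genes. The test called C1qa and Fcer1g higher and Cd68 lower. DESeq2 called neither C1qa (adjusted p = 0.22) nor Fcer1g (0.14), and edgeR lost Fcer1g without the wild type library (adjusted p = 0.82). Leaving out the 2, 3 and 1 cycling and 3, 7 and 2 other cells with UMIs of several myeloid or B cell genes put C1qa and Fcer1g under the filter on low counts and left 1811 genes called higher and 1601 lower. The 7 B cell genes summed to 6.34, 31.1 and 48.4 CPM in cycling and 22.6, 35.3 and 16.1 CPM in other cells. The natural killer gene Ncr1 was at 0 in every sum, and no erythroid gene passed the filter.

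Turning to genotype, Zbtb7b held 1, 61 and 61 UMIs in cycling and 0, 331 and 330 UMIs in other cells, which follows the labels. Within the Thpok-intact libraries it stood lower in cycling cells, at 24.99 and 13.7 CPM, than in other cells, at 34.9 and 31.6 CPM. Cd4 stood at 99.7, 149 and 166 CPM in cycling and 101, 238 and 239.8 CPM in other cells (-0.42, edgeR adjusted p = 0.018, and 0.067 with other cells matched in UMI total). Cd8b1 stood at 77.4, 20.5 and 17.9 CPM and 93.5, 14.6 and 12.8 CPM, and Cd8a at 28.2, 2.05 and 2.47 CPM and 33.8, 0.738 and 0.0958 CPM, both highest in the Thpok-deleted library. Of the cycling cells there, 33.3% had a Cd4 UMI and none of Cd8a and Cd8b1 (CD4-like) and 17.6% the reverse (CD8-like), against 59.5% and 2.99% in the Thpok-sufficient and 72.0% and 1.86% in the wild type library.

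The comparison of Thpok-deleted with Thpok-intact cycling cells asked what deletion changes among dividing cells, with 1 library against 2 and 1 residual degree of freedom. edgeR called 0 of 9832 genes in either direction (0.0%), with 305 higher and 478 lower at an unadjusted p under 0.05, and DESeq2 called 23 and 52. What follows is therefore given as values.

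Among the Tfh genes, all 21 measured were below both Thpok-intact libraries in Thpok-deleted cycling cells, as were 38.6% of all genes (median log2 fold change -3.84 for the list and -0.01 for all genes). Tnfsf8 had 18 UMIs in Thpok-deleted cycling cells (4.57 CPM), against 269 and 302 CPM in Thpok-intact ones (log2 fold change -5.92, edgeR adjusted p = 0.072). Sostdc1, a secreted inhibitor of Wnt and BMP signals, had 0 UMIs in Thpok-deleted cycling cells, against 40.2 and 50.5 CPM in Thpok-intact ones, and was at least 59.5-fold lower when set at a floor of 3 UMIs. The transcription factor Tox2 stood at 1.52 CPM in Thpok-deleted cells, against 47.1 and 63.7 CPM in Thpok-intact ones. The surface protein Cd83 stood at 1.52 CPM in Thpok-deleted cells, against 56.5 and 57.6 CPM in Thpok-intact ones, so that both were far below either Thpok-intact value. Tnfsf11 (RANKL), Nsg2, Ctse and Gm14718 had the other large decreases of the naming rule, with 3, 7, 6 and 0 UMIs in Thpok-deleted cycling cells, and Ctse was low in the wild type library as well, at 3.14 CPM.

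Of 21 cytotoxic and CD8 lineage genes, 20 were above both Thpok-intact libraries in Thpok-deleted cycling cells, as were 31.8% of all genes (median log2 fold change 2.64). Gzma stood at 645 CPM in Thpok-deleted cycling cells, against 43.4 and 48.4 CPM in Thpok-intact ones (3.84 ± 0.16, edgeR adjusted p = 0.072). Granzyme K, from Gzmk, stood at 232 CPM in Thpok-deleted cells, against 27.5 and 20.6 CPM in Thpok-intact ones. Eomes, a factor of killer and memory T cells, stood at 52.5 CPM in Thpok-deleted cells, against 0.819 and 1.57 CPM in Thpok-intact ones. No value of the Thpok-intact libraries came near those of the Thpok-deleted one. Klrd1 (192 CPM), the inhibitory receptor Klrg1 (80.7 CPM), Wdr95 (68.0 CPM), the integrin Itgax (55.3 CPM) and Cd8a (28.2 CPM) in Thpok-deleted cells, each of at most 13.5 CPM in Thpok-intact ones, were the others with the largest increases. None passed the threshold (adjusted p between 0.072 and 0.26).

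For the cell cycle genes in cycling cells, the median log2 fold change (Thpok-deleted over Thpok-intact) was -0.16 for the 64 mitosis genes, with 8 above and 38 below both Thpok-intact libraries. The median was 0.24 for the 50 replication genes, with 36 above and 3 below. Of all genes, 31.8% were above both and 38.6% below both. Ccnb2 stood at 195 CPM in Thpok-deleted, against 218 and 300.05 CPM in Thpok-intact cycling cells, and Mcm5 at 198 CPM in Thpok-deleted, against 178 and 193 CPM in Thpok-intact ones. In the other cells the order was plainer, with Ccnb2 at 75.9 CPM in Thpok-deleted, against 36.9 and 27.0 CPM in Thpok-intact cells, and Mcm5 at 81.4 CPM in Thpok-deleted, against 28.7 and 25.5 CPM in Thpok-intact ones. Over all 10828 genes tested in the other cells, edgeR called 21 higher (0.194%) and 26 lower (0.24%) in the Thpok-deleted library. The replication list made up 0.270% of the UMIs of Thpok-deleted other cells, against 0.133% and 0.129% in Thpok-intact ones.

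Whether the difference between cycling and other cells depends on genotype was tested as an interaction in 1 fit of the 6 sums. Of 10292 genes, 46 (0.447%) had a larger cycling-minus-other difference in the Thpok-deleted library and 295 (2.87%) a smaller one at an edgeR adjusted p under 0.05. DESeq2 called 2 and 44. The fit had 1 residual degree of freedom and drew nearly all of its spread from the trend over genes (prior degrees of freedom 966), so a gene whose 2 Thpok-intact libraries disagree can still pass.

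Of 23 Th1 genes, 14 had a smaller difference in the Thpok-deleted library and none a larger one, and of 21 cytotoxic genes 11 and none. Of 50 replication genes 41 had a smaller difference and of 64 mitosis genes 27, counts that go with the choice of cells and from which nothing is read. Gzma was 1.15-fold higher in cycling than in other cells in the Thpok-deleted library, against 4.53-fold and 4.68-fold in the Thpok-intact ones (interaction -1.998 ± 0.18 log2, edgeR adjusted p = 1.8e-24, DESeq2 5.8e-12). Gzmb showed ratios of 1.31 in the Thpok-deleted library, against 3.25 and 3.28 in the Thpok-intact ones (-1.32 ± 0.13, adjusted p = 4.1e-21). Cxcr6, a receptor of Th1 effector cells, was lower in cycling cells of the Thpok-deleted library, at a ratio of 0.582, and higher in those of the Thpok-intact ones, at 1.84 and 1.29 (-1.38 ± 0.15, adjusted p = 7.5e-16). Gzmb, Cxcr6 and Ccl5 were named for this comparison after their values were seen. Ccl5 showed how the limit bears: its ratios were 0.505 in the Thpok-deleted library, against 1.73 and 0.881 in the Thpok-intact ones, and its call (adjusted p = 4.8e-19) was lost with the robust option (adjusted p = 0.74). The other cells of the Thpok-deleted library held 1117 CPM of Gzmb, against 142 and 97.6 CPM in Thpok-intact ones.

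**Figure D5:**
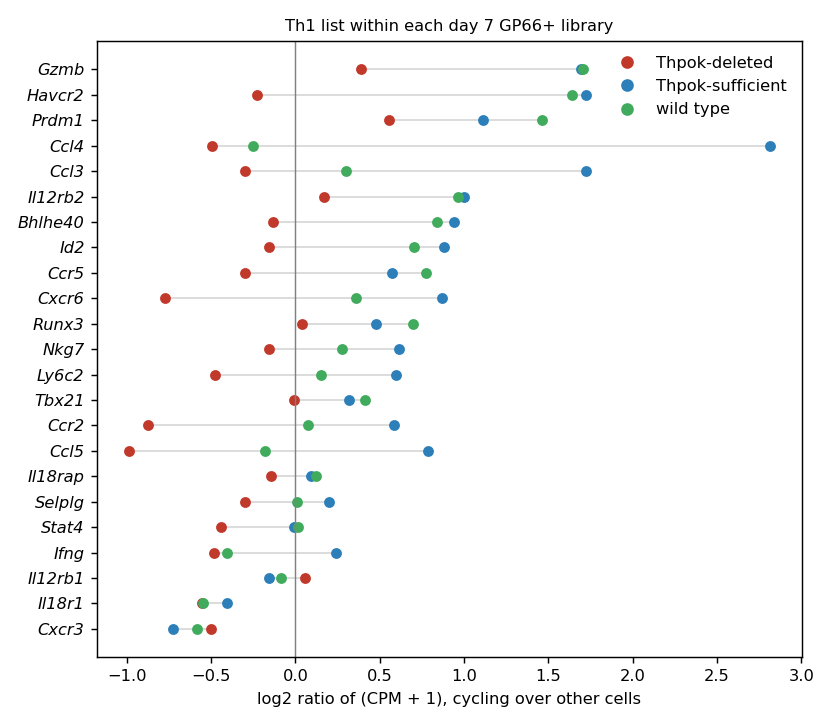
Log2 ratio of cycling over other cells, from CPM with 1 added (x axis), for the 23 Th1 genes within each library. The Thpok-deleted points lie left of both Thpok-intact points for most genes, Cxcr6 and Gzmb among them.

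Genes were named here if called, with at least 20 CPM in the higher class of every library and no overlap between genotypes. Within these limits, the largest negative interactions beside Gzma were those of 7 genes. The DNA glycosylase Neil3 (-2.57 ± 0.50), the recombination genes Rad54l (-2.57) and Rad51ap1 (-2.12), the helicase Brip1 (-1.98), the factor B-Myb gene Mybl2 (-2.06) and the histones Hist1h1b (-2.10) and Hist1h2ae (-2.07) were called by edgeR. Hist1h1b and Hist1h2ae were not past the threshold with DESeq2, nor Hist1h2ae with the robust option (adjusted p = 0.83). Rad51ap1 stood at 79.2, 70.9 and 57.2 CPM in cycling and 11.5, 2.32 and 1.92 CPM in other cells. The other cells of the Thpok-deleted library stood higher than those of the others. These 7 genes go with the cell cycle and so with the choice of cells, and nothing is read from their calls. The positive interactions within the same limits were smaller. Jun, a subunit of AP-1, stood at 35.3, 109 and 61.7 CPM in cycling and 34.0, 218 and 141 CPM in other cells (1.14 ± 0.21, edgeR adjusted p = 8.6e-06), lower in cycling cells of the Thpok-intact libraries and level in the Thpok-deleted one. Smco4 (1.05), Ate1 (1.02), Chd6 (0.96), Tspan32 (0.96), Ncoa3 (0.93), Mctp2 (0.92) and Gm11713 (0.92) were the other genes named by the rule. With DESeq2, Jun (adjusted p = 0.076), Tspan32 (0.24) and Ate1 were not past the threshold.

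The cycling difference in GP66+ cells was set against that in CD8-like cells of the 2 total CD44high libraries, to ask how far it is shared between T cell lineages in the same infection. Of 10205 genes, 2 differed (0.0196%), both with a higher difference in GP66+ cells, and 0 had a lower one, with 378 and 488 at an unadjusted p under 0.05. Il7r, the receptor chain for interleukin 7 on resting and memory T cells, stood at 10.9, 6.93 and 4.61 CPM in cycling GP66+ cells and 23.2, 9.53 and 7.87 CPM in other GP66+ cells. In CD8-like cells it stood at 14.8 and 9.57 CPM in cycling and 115 and 57.4 CPM in other cells. It was thus lower in cycling cells of all 5 libraries, and the gap was narrower in GP66+ cells (difference 2.01 ± 0.25 log2, edgeR adjusted p = 0.025). The call was lost without the wild type library (adjusted p = 0.20), without either total library (0.99 and 0.0826) and without the block for library. The other gene, Ccl9, was under 20 CPM in every sum. DESeq2 called 7 and 1 genes, and without the Thpok-deleted library edgeR called 101 and 47.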

How the data were processed

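The deposited matrices of the authors hold raw UMI counts per gene and barcode, unfiltered, made with the 10x Genomics Single Cell 3' kit of version 2, per the labels' protocols. The submitters' processing notes name bcl2fastq 2.17, Cell Ranger and the mm10 build. A matrix lists 27998 genes. The filters on barcodes were 500 detected genes as a minimum and 10% of UMIs from mitochondrial genes as a maximum. Doublets were not removed: Scrublet (expected rate 6%) called 73 of 16427 cells (0.444%), too few to count as working, and its calls were left out only as an alternative.

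For each library, the UMI counts of cycling and of other cells were added up. edgeR 4.0.16 in R 4.3.3 (TMM, filterByExpr, quasi-likelihood F-test, Benjamini-Hochberg adjustment over all genes tested, threshold 0.05) tested cycling against other cells with the library as a block, since both classes come from 1 library. The same tool tested genotype within a class, the interaction, and the difference from total CD8-like cells. DESeq2 1.42.0 was an alternative. Cells were read with Python 3.11.15, and Scrublet was run in scanpy 1.11.5. Intervals of shares are exact binomial (Clopper-Pearson) and cover counting error only. The fits were tested on simulated data with known changes. Of 67 genes changed 2-fold, the fit of cycling against other cells recovered 64 and the interaction 37. The genotype fit in cycling cells recovered 7 of 67 at 2-fold and 43 of 66 at 4-fold, so it misses many real changes.

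The 3 libraries held 8861661 (Thpok-deleted), 12488427 (Thpok-sufficient) and 14358928 (wild type) UMIs in kept cells. Genes were named by rule: up to 12 a direction with the largest fold change past the threshold and at least 20 CPM, the most abundant members of each of 29 lists, and up to 8 a direction for genotype and the interaction. Some of the genes so named are not reported here. The members and lists were chosen with earlier results of these data known.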

Additional observations from a re-analysis of the deposited data

Results flagged for a closer look

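For 16 genes kept by the naming rule, out of more that were called, the difference between cycling and other cells departed between genotypes. The interaction itself was tested, between the Thpok-deleted and the Thpok-intact libraries (log2, edgeR adjusted p under 0.05). It was above 0 for Jun (1.14), Smco4 (1.05), Ate1 (1.02), Chd6 (0.96), Tspan32 (0.96), Ncoa3 (0.93), Mctp2 (0.92) and Gm11713 (0.92). It was below 0 for Neil3 (-2.57), Rad54l (-2.57), Rad51ap1 (-2.12), Hist1h1b (-2.10), Hist1h2ae (-2.07), Mybl2 (-2.06), Gzma (-1.998) and Brip1 (-1.98). With DESeq2, Jun (adjusted p = 0.076), Tspan32 (0.24), Ate1, Hist1h1b and Hist1h2ae were not past the threshold, and with the robust option of edgeR Hist1h2ae was not (0.83). The Thpok-deleted arm was 1 library, and the fit had 1 residual degree of freedom and 966 prior ones drawn from the trend over genes. Of the genes below 0, all but Gzma go with the cell cycle and so with the choice of cells, and nothing is read from their calls.

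Il7r differed less between cycling and other cells in GP66+ than in total CD8-like cells (difference of log2 fold changes 2.01), again by a test of the difference itself, and the call was lost without the wild type library or either total library.

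Cells meeting the rule were also seen at day 30, in libraries that the comparisons did not use. In the Thpok-deleted library they were 19 of 736 cells (2.58%, 95% exact interval 1.56 to 4.002), and in the Thpok-sufficient library 3 of 725 (0.414%, 0.0854 to 1.20). At 2000 UMIs per cell the shares were 9 of 519 (1.73%, 0.796 to 3.27) and 2 of 371 (0.539%, 0.0654 to 1.93). The intervals overlap after thinning, and with 1 library each no test could be made.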

How the results depend on the processing

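For cycling against other cells (1787 higher, 1534 lower), DESeq2 called 1133 and 742 genes, thinning to 2000 UMIs left 994 lower, and the fit with no replicate block for the library called 668 and 149. Leaving out 1 library gave 1178 to 2204 higher and 828 to 1975 lower. Within cycling cells, genotype calls (0 and 0) became 23 and 52 with DESeq2, 2 and 1 with library totals alone, 4 and 7 with the robust option, 155 and 268 with no filter on low counts, and 6 and 7 with all 3 genes required. In the other cells (21 and 26) they became 160 and 194, 0 and 0, 64 and 66, and 239 and 243 under the first 4 of these, 43 lower with all 3 genes, 12 and 15 after thinning and 35 and 41 without Scrublet calls. Interaction calls (46 above 0, 295 below) became 2 and 44 with DESeq2, and those above 0 became 24 after thinning and 25 without cells over the 95th percentile of UMIs. Against CD8-like cells (2 and 0), DESeq2 called 7 and 1, the robust option 9 and 4, no filter 84 and 67, and no replicate block 0 above 0, and leaving out 1 library gave 0 to 101 above 0 and 0 to 47 below. Il7r was not called with no replicate block or without the wild type library (adjusted p = 0.20) or either total library (0.99 and 0.083). The share of cycling cells became 9.10%, 3.39% and 5.37% (Thpok-deleted, Thpok-sufficient, wild type) at 1000 UMIs, 17.0%, 7.48% and 10.4% at 2000, 23.7%, 9.80% and 13.7% at 3000, and 20.03%, 7.05% and 11.5% with all 3 genes, and in the Thpok-sufficient library 15.9% at a 5% mitochondrial limit. The order of the libraries was the same in each. Ccl5 in cycling against other cells (-0.13) changed sign to 0.079 after thinning, 0.080 without the cells of most UMIs and 0.75 with matched UMI totals, and leaving out 1 library gave -0.59 to 0.31, positive without the Thpok-deleted one. Cxcr6 (0.12) became -0.082 with no replicate block and -0.22 to 0.60 with 1 library left out, negative without either Thpok-intact one. The cause of these shifts was not tested. Of 1385 values of 93 named genes in cycling against other cells, 1276 kept their direction and side of the threshold. The robust option and the removal of cells with myeloid or B cell genes were chosen after seeing the data. Depth limits the low genes, which the filter removed.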
